A study of Mus musculus with 18 samples.

Results

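Prox1, Calb1, C1ql2, C1ql3, Dsp, Tdo2 and Lct, 7 genes used as markers of dentate granule cells, were followed in mouse hippocampus in a kainic acid model of temporal lobe epilepsy. They were taken by symbol from the 55291 gene symbols in the files, and all 7 were present in every library. The model was made by delivering kainic acid (KA), which activates a class of glutamate receptors, to the dentate gyrus on the right side. RNA was measured by sequencing in 18 libraries of the right hippocampus, an input library and an IP library from each of 9 homogenates. All mice were male C57BL/6J mice, 6 weeks old at surgery, and all received AAV DJ-GfaABC1D-EGFP-Rpl10a into right CA3, so the controls carried the virus too. The GfaABC1D promoter drives EGFP-tagged ribosomal protein L10a in astrocytes, and the IP library holds RNA pulled down with these ribosomes by an anti-GFP antibody. The AAV control group received the virus alone and its RNA was collected 2 weeks later. The PBS group received phosphate-buffered saline after the virus. The KA group received KA 2 weeks after the virus, and its RNA was collected 14 days after KA. Each group had 3 samples, #1 to #3, each a pool of 3 to 4 hippocampi, so the p-values measure the spread between pools.

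Dentate granule cells are the principal excitatory neurons of the dentate gyrus and send mossy fibers to CA3. Prox1 is the homeobox factor that sets and maintains granule cell identity, and Calb1 encodes the calcium buffer calbindin, whose loss from granule cells is a known feature of epileptic tissue. C1ql2 and C1ql3 encode secreted C1q-like proteins that organize synapses, C1ql2 at mossy fiber terminals. Dsp encodes desmoplakin, a junction protein with high expression in granule cells among hippocampal neurons. Tdo2 encodes tryptophan 2,3-dioxygenase, the entry enzyme of the kynurenine pathway, and Lct encodes lactase, both known as transcripts of mature granule cells in the mouse.

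On GRCm38, Prox1 lies on the minus strand at chr1:190118035-190170714, Calb1 on the plus strand at chr4:15881264-15908064, C1ql2 on the plus strand at chr1:120340582-120343174 and C1ql3 on the minus strand at chr2:13003457-13011806. Dsp lies on the plus strand at chr13:38151294-38198577, Tdo2 on the minus strand at chr3:81957090-81976202 and Lct on the minus strand at chr1:128284756-128328318. GENCODE places 2 antisense genes over Prox1 (Prox1os and Gm28172), 2 unclassified genes over C1ql3 and 1 over Dsp, all on the opposite strand. Whether the counting used strand is not given in the sources used here, so reads of these partners cannot be told apart from those of the members.

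The sequences before the start sites of Dsp, Tdo2 and Lct are shown because these 3 genes fell together in input after KA. Each runs 5′ to 3′ over the 250 bases before the RefSeq start (GRCm38.p6), with motif matches on either strand in capitals. The motifs searched were the TATA box, spelled TATAAA, and the GC box, spelled GGGCGG. The cAMP response element was searched as TGACGTCA, and the AP-1 site was searched with the letters TGANTCA.
Dsp, chr13:38151044-38151293, plus strand: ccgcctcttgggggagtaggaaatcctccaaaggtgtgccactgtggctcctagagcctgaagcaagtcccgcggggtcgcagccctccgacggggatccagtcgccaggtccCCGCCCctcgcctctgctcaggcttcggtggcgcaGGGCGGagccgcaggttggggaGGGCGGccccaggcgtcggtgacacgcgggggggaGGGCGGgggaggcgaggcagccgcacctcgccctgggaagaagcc
Tdo2, chr3:81975729-81975978, minus strand: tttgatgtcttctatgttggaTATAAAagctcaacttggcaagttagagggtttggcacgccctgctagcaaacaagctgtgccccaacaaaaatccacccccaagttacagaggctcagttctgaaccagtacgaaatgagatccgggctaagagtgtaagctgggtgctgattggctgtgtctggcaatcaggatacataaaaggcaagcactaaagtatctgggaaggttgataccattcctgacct
Lct, chr1:128328319-128328568, minus strand: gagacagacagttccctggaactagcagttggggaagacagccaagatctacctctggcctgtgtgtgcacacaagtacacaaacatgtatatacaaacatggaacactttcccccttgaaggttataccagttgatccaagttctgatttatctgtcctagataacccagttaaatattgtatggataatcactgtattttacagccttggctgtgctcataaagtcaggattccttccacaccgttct

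The Dsp sequence held 4 GC boxes, the Tdo2 sequence held 1 TATA box, and the Lct sequence held none of the capitalized motifs. These are matches of letters at any position, and the TATAAA of Tdo2 lay near the end far from the start. GC content was 72.4% for Dsp, 46.4% for Tdo2 and 42.8% for Lct, beside a median of 52.4% over 32851 promoters. A GC box was present in 32.7% of all these windows, a TATA box in 12.4%, an AP-1 site in 6.7% and a cAMP response element in 1.5%. The E-box CANNTG, present in 66.2%, was found in 2 places before Lct and nowhere before Dsp or Tdo2. None of these letter strings contains another. Thus the 3 sequences had no searched motif in common. Of the members that did not fall past the thresholds, C1ql2 had no capitalized motif and 1 E-box, and C1ql3 had 2 GC boxes and 1 E-box. Before 1 start of Prox1 there was 1 GC box. Before its other start there were 2 GC boxes, 1 TATA box and 2 E-boxes. No sequence was available for Calb1.

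The 18 libraries held 7991681 to 16032180 counts, with group medians between 9553362 and 11430255. The labels call every library hippocampal astrocyte, while the input is an aliquot of the whole homogenate. All 8 astrocyte markers were higher in IP than in input in every group, by a median log2 difference of 3.28 in AAV control, 2.93 in PBS and 2.08 in KA. Rpl10a, whose transgene reads may be counted with the gene, ranged from 34.7 to 53.8 FPKM in input and from 196 to 343 FPKM in IP. FPKM is the count per library total and per fixed gene length.

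In input, 3 of the 7 genes fell after KA and 4 did not pass the test. Dsp, Tdo2 and Lct were lower than in either control group, while the log2 differences of Prox1, Calb1, C1ql2 and C1ql3 lay between -0.45 and 0.26.

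Dsp in input was 2.01, 2.09 and 0.938 FPKM in AAV control #1 to #3, 1.25, 1.03 and 1.13 in PBS, and 0.367, 0.348 and 0.386 in KA. The KA libraries, with 32 to 38 counts, were all below both control groups. Dsp fell by 2.17 ± 0.29 (log2, SE) against AAV control (edgeR quasi-likelihood test, adjusted p = 0.00303) and by 1.66 ± 0.21 against PBS (adjusted p = 0.000103).

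Tdo2 in input was 1.61, 1.46 and 2.11 FPKM in AAV control, 1.44, 1.72 and 1.65 in PBS, and 0.261, 0.622 and 0.354 in KA. The KA libraries held 10 to 23 counts, and the highest was below the lowest control library. Tdo2 fell by 2.10 ± 0.37 against AAV control (edgeR, adjusted p = 0.0104) and by 1.99 ± 0.31 against PBS (adjusted p = 0.000539).

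Lct in input was 2.78, 2.09 and 1.96 FPKM in AAV control, 2.04, 2.002 and 2.12 in PBS, and 0.459, 0.524 and 1.04 in KA. Again the KA libraries did not overlap with either control group. Lct fell by 1.73 ± 0.34 against AAV control (edgeR, adjusted p = 0.0168) and by 1.62 ± 0.28 against PBS (adjusted p = 0.00119). Against AAV control, the adjusted p of Tdo2 rose to 0.0666 without KA input #1 and to 0.0539 without #3. The adjusted p of Lct rose to 0.0990 without KA input #1, 0.1002 without KA input #2 and 0.0614 without AAV control input #1, whereas no single library ended a call for Dsp or any of the 3 calls against PBS. Within the sequencing run that held #1 and #2 of KA and AAV control, the log2 differences were -2.50 for Dsp, -1.78 for Tdo2 and -2.28 for Lct (edgeR, adjusted p = 4.42e-12, 0.000158 and 7.02e-10). This fit sets 2 libraries against 2, so its small p-values rest on the spread between pools of the same run. In input these pools differed by 4.48 (KA) and 4.66 (AAV control) times counting noise. Their pairs with #3, of another run, differed by 39.6 to 109 times.

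These values come from genes with 10 counts or more in at least 3 compared libraries, since Dsp and Tdo2 in all KA input libraries and Lct in KA input #1 and #2 were under 1 FPKM and so could not pass the study's filter of FPKM above 1 in all compared libraries. A gene was called where the adjusted p was under 0.05 and the log2 fold change was 1 or more in either direction. Of 15920 genes tested against AAV control, 5.17% were called, and 0.421% were called lower. Against PBS, 10% of 15890 genes were called and 1.95% were called lower. Under the FPKM filter 0 of the 4 members tested were called in either comparison, where 2.7% and 5.35% of genes were called. By an unadjusted p under 0.05, that fit held 0 of the 4 members against AAV control and 1 (C1ql2) against PBS. Over all genes tested, 1939 of 10809 and 4337 of 10849 had such a p. In bulk RNA, fewer granule cells and less of a transcript per cell cannot be told apart.

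Prox1 in input was 12.4, 10.96 and 6.44 FPKM in AAV control, 9.69, 8.10 and 9.54 in PBS, and 12.8, 11.2 and 9.13 in KA. The 3 groups overlapped. The log2 difference was 0.17 ± 0.21 against AAV control (edgeR, adjusted p = 0.748) and 0.26 ± 0.12 against PBS (adjusted p = 0.143).

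Calb1 in input was 21.2, 19.8 and 25.4 FPKM in AAV control, 20.8, 25.01 and 29.8 in PBS, and 19.0, 26.3 and 13.6 in KA. KA #3 was the lowest of the 9 libraries and KA #2 the second highest. Neither difference passed, at -0.19 ± 0.23 against AAV control (edgeR, adjusted p = 0.737) and -0.38 ± 0.17 against PBS (adjusted p = 0.133).

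C1ql2 in input was 30.05, 28.1 and 46.1 FPKM in AAV control, 32.9, 39.1 and 40.5 in PBS, and 27.8, 22.7 and 31.6 in KA. The KA libraries lay below all PBS libraries but overlapped with AAV control. The difference was -0.45 ± 0.14 against PBS (edgeR, adjusted p = 0.0375), short of the fold threshold, and -0.35 ± 0.27 against AAV control (adjusted p = 0.565). Its paralog C1ql3 was 4.10, 4.71 and 4.11 FPKM in AAV control, 4.40, 4.77 and 5.24 in PBS, and 4.76, 6.04 and 4.68 in KA. C1ql3 overlapped between the groups, with a difference of 0.26 ± 0.17 against AAV control (edgeR, adjusted p = 0.496) and 0.09 ± 0.15 against PBS (adjusted p = 0.675).

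In mean input level per length, AAV control had C1ql2 at 34.8 ± 9.9 FPKM (SD, n = 3) above Calb1 at 22.1 ± 2.9, Prox1 at 9.93 ± 3.1 and C1ql3 at 4.31 ± 0.35. Lct at 2.28 ± 0.44, Tdo2 at 1.73 ± 0.34 and Dsp at 1.68 ± 0.64 were the lowest, and these last levels lay within their spread of each other. In KA the order of the upper 4 was the same, and the lower 3 were Lct at 0.675 ± 0.32, Tdo2 at 0.412 ± 0.19 and Dsp at 0.367 ± 0.019. The genes that fell were therefore the least abundant of the members.

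**Figure D1:**
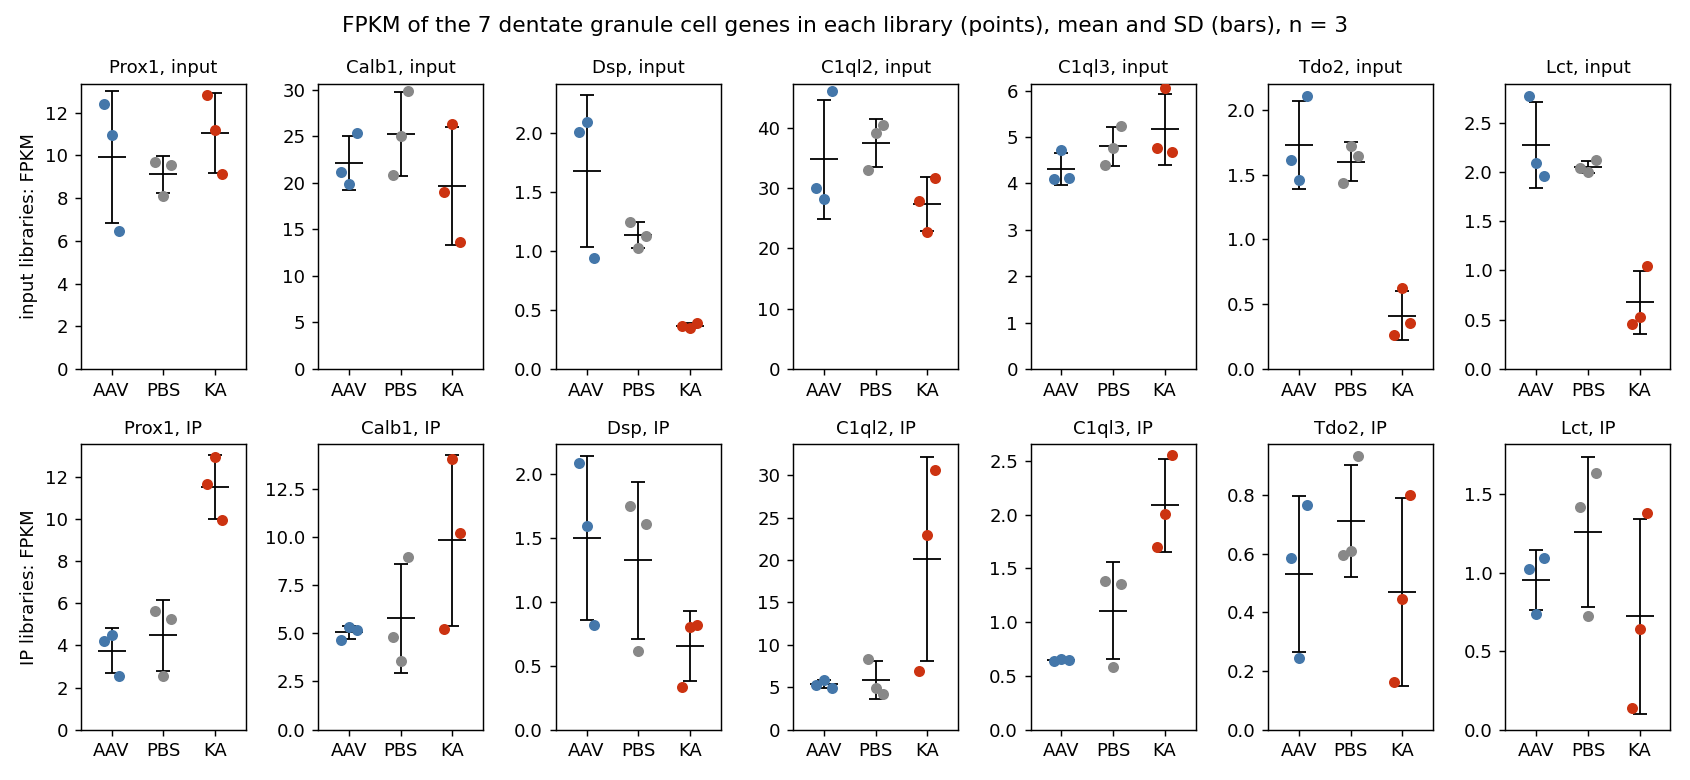
FPKM (vertical axis, from 0) of each gene in the input (top) and IP (bottom) libraries of the AAV control, PBS and KA groups. Points are libraries #1 to #3, and bars are the mean and SD. In input, Dsp, Tdo2 and Lct lie below all controls in KA, at 0.386, 0.622 and 1.04 FPKM or less. In IP, Prox1 in KA lies at 9.94 FPKM or more, above the highest control library at 5.62.

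Over the 9 input libraries, the log2(FPKM + 1) of Dsp and Lct had a Pearson correlation of 0.89, Tdo2 and Lct 0.88, and Dsp and Tdo2 0.76. Other pairs ran in opposite directions, with Prox1 and C1ql2 at -0.81, C1ql3 and Lct at -0.60, and Prox1 and Tdo2 at -0.51. Of the remaining pairs the values lay between -0.50 and 0.65. These 9 points share the 3 groups and the sequencing runs, and are given as a description. In KA and AAV control, #3 came from another run than #1 and #2. In both groups #3 had the lowest Prox1 (9.13 and 6.44 FPKM) and the highest C1ql2 (31.6 and 46.1 FPKM). The genes nearest to a member by this measure, among 10556 others above 1 FPKM in all 9 libraries, were Slc1a6 (0.98), Adcy2 (0.98) and Dync1i1 (0.98) for C1ql2, and Nlk (0.98), Cab39l (0.97) and Rfc1 (0.97) for Prox1. For Calb1 they included 2410002F23Rik (0.93) and Arl8a (0.92), and for C1ql3 Sec22b (0.90) and Usp10 (0.89). None of these was another member.

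In IP other members were called than in input. Prox1, C1ql2 and C1ql3 rose after KA against both controls, Calb1 was higher on average without passing the main test, and Dsp, Tdo2 and Lct did not pass, though Dsp was lower on average.

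Prox1 in IP was 4.23, 4.51 and 2.53 FPKM in AAV control, 5.62, 2.56 and 5.26 in PBS, and 11.7, 12.9 and 9.94 in KA. All KA libraries lay above all controls. Prox1 rose by 1.68 ± 0.20 (log2, SE) against AAV control (edgeR quasi-likelihood test, adjusted p = 0.00182) and by 1.38 ± 0.23 against PBS (adjusted p = 0.00154).

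C1ql2 in IP was 5.28, 5.91 and 4.96 FPKM in AAV control, 8.36, 4.90 and 4.24 in PBS, and 6.92, 22.9 and 30.6 in KA. KA #1 was the lowest KA library, lay just above AAV control and overlapped with PBS. C1ql2 rose by 1.999 ± 0.51 against AAV control (edgeR, adjusted p = 0.0298) and by 1.81 ± 0.48 against PBS (adjusted p = 0.0145). The call against AAV control was lost with limma-voom (adjusted p = 0.0732) and without KA IP #2 (0.0840), KA IP #3 (0.0888), AAV control IP #1 (0.0902) or AAV control IP #2 (0.0856). The call against PBS was lost without KA IP #3 (0.0529) or PBS IP #3 (0.0733). Within run 1, with only #1 and #2 of both groups, C1ql2 was at 1.48 against AAV control (adjusted p = 0.0186) and Prox1 at 1.56 (adjusted p = 2.61e-06).

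C1ql3 in IP was 0.638, 0.660 and 0.647 FPKM in AAV control, 1.38, 0.587 and 1.35 in PBS, and 1.70, 2.01 and 2.56 in KA. The KA libraries, with 48 to 71 counts, did not overlap with either control. C1ql3, under 1 FPKM in AAV control and in PBS #2 and so tested with the count filter, rose by 1.81 ± 0.33 against AAV control (edgeR, adjusted p = 0.00804) and by 1.12 ± 0.36 against PBS (adjusted p = 0.0249). The PBS call was lost without KA IP #3 (adjusted p = 0.0933), PBS IP #2 (0.102) or PBS IP #3 (0.0655).

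Calb1 in IP was 4.67, 5.33 and 5.17 FPKM in AAV control, 4.82, 3.54 and 8.96 in PBS, and 5.23, 14.05 and 10.2 in KA. KA #1 overlapped with both control groups. The difference was 1.01 ± 0.34 against AAV control (edgeR, adjusted p = 0.0711) and 0.82 ± 0.36 against PBS (adjusted p = 0.0937), and Calb1 was called against PBS with the count filter, at 1.002 ± 0.32 (adjusted p = 0.0232). Against AAV control the call depended on the fit. With the run as a covariate Calb1 was called at 1.01 (adjusted p = 0.0269), and within run 1 at 1.01 (adjusted p = 0.0376). It was also called with all 18 libraries in one fit (1.01, adjusted p = 0.0197), with DESeq2 (1.02, adjusted p = 0.0259), without a filter on low values (1.10, adjusted p = 0.000125) and without KA IP #1 (1.34, adjusted p = 0.0125).

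Dsp in IP was 2.09, 1.59 and 0.816 FPKM in AAV control, 1.74, 0.616 and 1.61 in PBS, and 0.335, 0.805 and 0.822 in KA. The groups overlapped. The difference was -1.03 ± 0.42 against AAV control (edgeR, adjusted p = 0.122) and -0.80 ± 0.38 against PBS (adjusted p = 0.108). Against AAV control Dsp was called lower within run 1, at -1.60 (adjusted p = 0.00144), with all 18 libraries in one fit, at -1.03 (adjusted p = 0.0487), without a filter on low values, at -1.03 (adjusted p = 0.00444), and without AAV control IP #3, at -1.31 (adjusted p = 0.0211). It was called lower against PBS without KA IP #3, at -1.09 (adjusted p = 0.0470), or PBS IP #2, at -1.12 (adjusted p = 0.0371).

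Tdo2 in IP ranged from 0.242 to 0.764 FPKM in AAV control, from 0.595 to 0.933 in PBS and from 0.162 to 0.799 in KA. Lct in IP ranged from 0.735 to 1.10 FPKM in AAV control, from 0.724 to 1.64 in PBS and from 0.140 to 1.38 in KA. Both were lowest in KA #1, with 7 and 10 counts. Their differences in IP were -0.06 ± 0.66 and -0.24 ± 0.67 against AAV control (edgeR, adjusted p = 0.963 and 0.840), and -0.37 ± 0.51 and -0.54 ± 0.54 against PBS (adjusted p = 0.592 and 0.447). Lct was called lower against PBS without KA IP #3, at -1.56 (adjusted p = 0.0231).

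In IP, 2 of the 3 members tested with the FPKM filter were called against each control, where 11.6% of genes were called against AAV control (6.39% higher) and 17.4% against PBS (8.08% higher). With the count filter 3 of 7 members were called higher against AAV control and 4 of 7 against PBS, where 13.8% and 26.1% of genes were called (8.03% and 11% higher). No member was called lower in these fits. Markers of other cells also moved between these IP libraries. The summed FPKM of 7 pan-neuronal genes was 241 to 314 in KA, 119 to 159 in AAV control and 123 to 209 in PBS, and that of 4 oligodendrocyte genes was 1146 to 2190, 192 to 840 and 213 to 451. The 8 CA pyramidal genes summed to 19.4 to 28.9 in KA, 33.9 to 39.3 in AAV control and 32.6 to 53.9 in PBS, and no marker of these 3 lists was at 0 in all libraries of a group. The part of these cells in the members' rise was not tested.

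**Figure D2:**
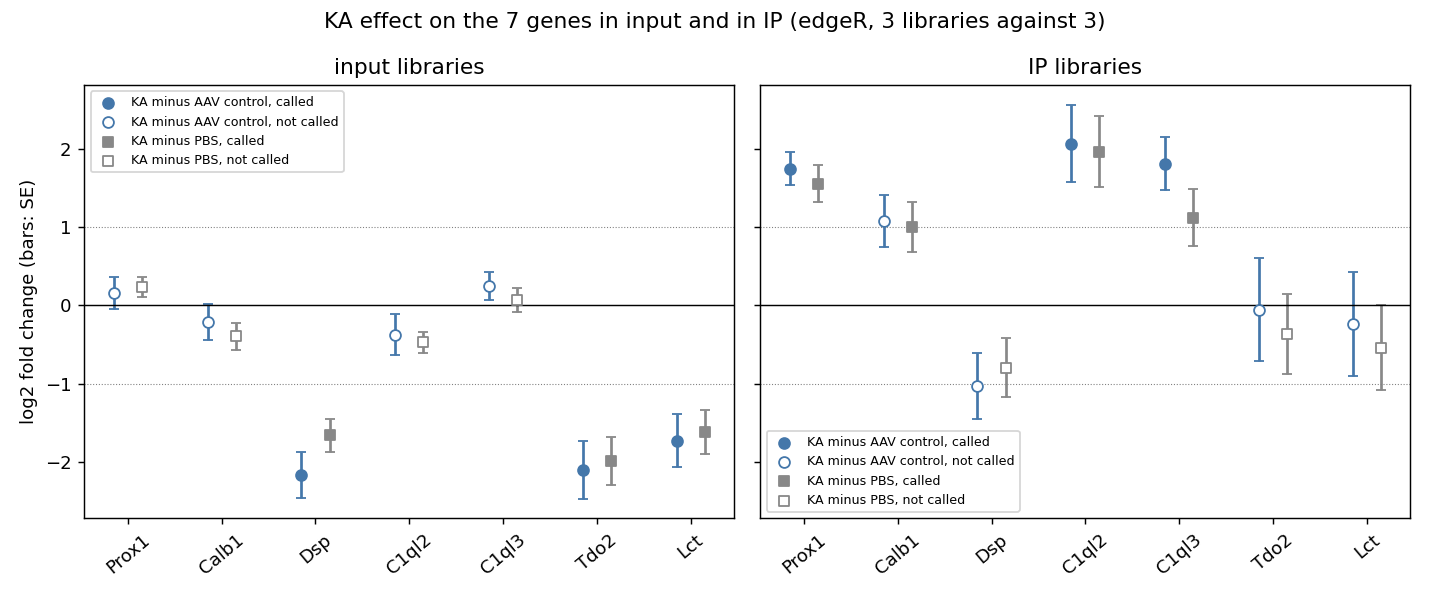
Log2 fold change of each gene between KA and AAV control (circles) or PBS (squares) in input (left) and IP (right), with SE bars, 3 libraries against 3 and genes passing the count filter. Filled symbols were called, and dotted lines mark a log2 fold change of 1. Dsp, Tdo2 and Lct are called lower in input, at -2.17, -2.10 and -1.73 against AAV control. Prox1, C1ql2 and C1ql3 are called higher in IP, at 1.74, 2.07 and 1.81.

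No member was called between PBS and AAV control. In input, 0 of the 6 members tested with the FPKM filter and 0 of 7 with the count filter were called by edgeR, and the smallest unadjusted p was 0.104 (Dsp, at -0.49 ± 0.27). In IP, 0 of 3 and 0 of 7 were called, with a smallest unadjusted p of 0.126 (C1ql3, at 0.69 ± 0.42). Over all genes 0% were called in input with either filter, and 0% and 0.0184% in IP. The 2 KA contrasts share the KA libraries. KA and AAV control differ in time after the virus and in the later injection surgery, which AAV control did not have. All PBS libraries came from a sequencing run of their own. These differences cannot be told apart from the groups. The times of PBS injection and of RNA collection in the PBS group are not given in the sources used here.

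The IP to input ratio shows how far a transcript was kept out of the astrocyte pull-down. In AAV control and PBS the members were depleted from IP, apart from Dsp. In AAV control, 6 of 7 pan-neuronal, 6 of 8 CA pyramidal and 6 of 6 interneuron genes were also called lower. With the count filter used there, their median log2 differences were -2.58, -2.11 and -2.10, beside -1.52 for the members. Over all genes 13.6% were called lower. In KA the mean ratio of every member was higher than in the controls, and that of Prox1 was 1.05.

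The Prox1 ratio in #1 to #3 was 0.341, 0.412 and 0.393 in AAV control, 0.580, 0.316 and 0.551 in PBS, and 0.911, 1.15 and 1.09 in KA. The means were 0.382 ± 0.036, 0.482 ± 0.14 and 1.05 ± 0.13 (SD, n = 3 homogenates), and KA did not overlap with the controls. In the C1ql2 ratio, AAV control had 0.176, 0.210 and 0.107, PBS had 0.254, 0.1255 and 0.105, and KA had 0.248, 1.01 and 0.966. KA #1 again lay beside the controls, and the KA mean of 0.742 ± 0.43 rests on #2 and #3.

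C1ql3 had ratios of 0.156, 0.140 and 0.157 in AAV control, 0.314, 0.123 and 0.258 in PBS, and 0.357, 0.332 and 0.546 in KA. Calb1 had 0.221, 0.269 and 0.204 in AAV control, 0.232, 0.142 and 0.301 in PBS, and 0.274, 0.534 and 0.749 in KA. All KA ratios of C1ql3 were above all controls, and those of Calb1 overlapped with PBS at #1.

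Dsp had ratios of 1.04, 0.761 and 0.870 in AAV control, 1.40, 0.599 and 1.42 in PBS, and 0.911, 2.32 and 2.13 in KA. Its mean ratio was 0.890 ± 0.14 in AAV control, 1.14 ± 0.47 in PBS and 1.79 ± 0.76 in KA, the highest of the 7 members in each group. Its mean level in the astrocyte IP of the controls was thus near that of input, and which cells it came from was not tested. Most other genes known from granule cells were not called depleted either. Of 10, 2 were called lower in IP than in input in AAV control with the count filter, with a median log2 difference of -0.46 beside -1.52 for the members. With the FPKM filter, 0 of 6 were called in AAV control and 0 of 7 in PBS. Tdo2 had mean ratios of 0.297 ± 0.11 in AAV control, 0.445 ± 0.11 in PBS and 1.20 ± 0.92 in KA, where #3 alone reached 2.26. Lct had mean ratios of 0.427 ± 0.12, 0.611 ± 0.22 and 0.954 ± 0.56, and its KA #1, at 0.305, was below all controls.

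By edgeR, 6 of 7 members were called lower in IP than in input in AAV control with the count filter, from -1.08 ± 0.26 for Lct (adjusted p = 0.0133) to -2.57 ± 0.28 for C1ql2 (adjusted p = 0.000333), beside 27.8% of genes called and 13.6% called lower. Dsp was at -0.00 ± 0.36 (adjusted p = 0.994). In PBS, 5 of 7 were called lower, beside 31% called and 13.2% lower, and Dsp was at 0.22 ± 0.27 (adjusted p = 0.513) and Lct at -0.70 ± 0.22 (adjusted p = 0.0147). With the FPKM filter, 3 of 3 members tested were called lower in AAV control and 2 of 3 in PBS, beside 26.4% and 27.1% of genes. In AAV control the Tdo2 call was lost under 5 of 6 omissions of a library, all but IP #3 (adjusted p of 0.0510 to 0.0885), and the Lct call without IP #2 (0.0553) or input #1 (0.0636).

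In KA, 1 of the 4 members tested with the FPKM filter was called lower, C1ql3 at -1.07 ± 0.23 (edgeR, adjusted p = 0.00904), beside 12.6% of genes, and it was at -0.90 without KA IP #1. With the count filter C1ql3 was at -0.98 ± 0.24, just short of the fold threshold, and 1 of 7 members was called, Dsp higher in IP at 1.15 ± 0.37 (adjusted p = 0.0394), beside 17.1% of genes. The Dsp call was lost with limma-voom and without KA IP #2, KA IP #3 or any single KA input library, at adjusted p between 0.0746 and 0.133. Prox1 was at 0.28 ± 0.13 (adjusted p = 0.124) and Calb1 at -0.76 ± 0.35 (adjusted p = 0.128). C1ql2 was at -0.20 ± 0.48 (adjusted p = 0.783).

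**Figure D3:**
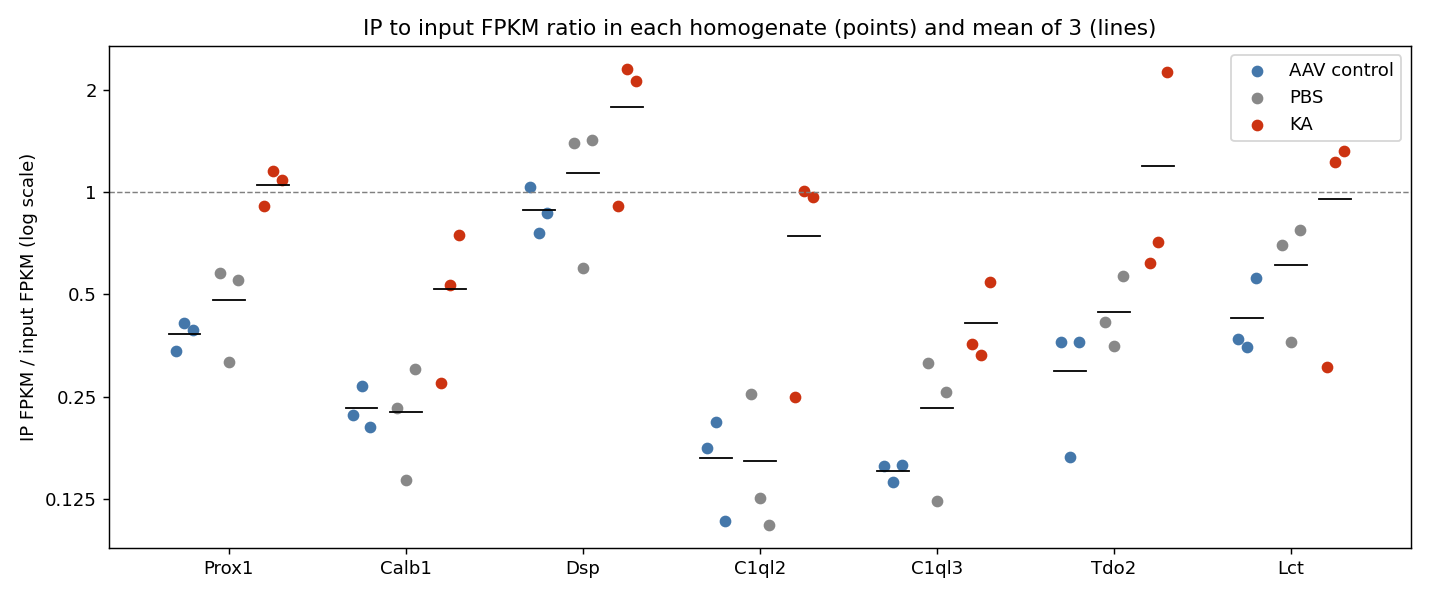
Ratio of IP FPKM to input FPKM of each gene in each homogenate (points, log axis), with the mean of the 3 homogenates of a group (lines). The dashed line marks equal levels. Prox1 lies at 0.911 to 1.15 in KA and at 0.580 or less in the controls, and Dsp lies near or above 1 in most homogenates of all groups.

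The difference of the IP to input difference between KA and a control was tested directly, first without the pairing of IP and input. Against AAV control, it was 1.54 ± 0.30 for Prox1 (edgeR interaction term, adjusted p = 0.00613), 2.37 ± 0.63 for C1ql2 (adjusted p = 0.0272) and, with the count filter, 1.59 ± 0.34 for C1ql3 (adjusted p = 0.0112). Against PBS it was 1.12 ± 0.28 for Prox1 (edgeR, adjusted p = 0.0105), 2.24 ± 0.58 for C1ql2 (adjusted p = 0.0125) and 1.07 ± 0.35 for C1ql3 (adjusted p = 0.0431). Calb1 was at 1.22 ± 0.45 (adjusted p = 0.0961) and 1.19 ± 0.44 (adjusted p = 0.0620). Of the members tested, 2 of 3 with the FPKM filter were called against each control, beside 9.41% and 13.9% of genes, and 3 of 7 and 4 of 7 with the count filter, beside 6.86% and 13.7% (4.08% and 5.73% higher).

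IP and input of 1 homogenate are paired by design. With each homogenate as a replicate block and the count filter, 7 of 7 members were called higher against AAV control, from 1.11 ± 0.32 for Dsp (edgeR, adjusted p = 0.0160) to 2.22 ± 0.40 for C1ql2 (adjusted p = 0.000382), beside 12% of genes called and 6.21% higher. In the same paired fit Prox1 was at 1.61 ± 0.17 (adjusted p = 1.62e-06), C1ql3 at 1.57 ± 0.32 (adjusted p = 0.00149) and Calb1 at 1.23 ± 0.27 (adjusted p = 0.00252). Tdo2 was at 2.03 ± 0.55 (adjusted p = 0.0110) and Lct at 1.34 ± 0.40 (adjusted p = 0.0195). Against PBS, 5 of 7 were called higher, all but Dsp and Lct, beside 16.4% called and 6.33% higher. For Dsp, Tdo2 and Lct, which fell in input, the higher difference came with a lower input level, and for Prox1, C1ql2 and C1ql3 with a higher IP level.

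Without the block, the Prox1 call against AAV control was lost without the KA #2 homogenate (adjusted p = 0.0568), and the C1ql2 call with limma-voom (0.0737) or when any homogenate but KA #1 was left out (0.0555 to 0.139). The C1ql3 call was lost without AAV control #1 (0.0581) or #2 (0.0711). Against PBS the C1ql3 call was lost with limma-voom (0.0534) and under 5 of the 6 omissions, all but PBS #1 (0.0688 to 0.138). The C1ql2 call against PBS was lost without KA #2 (0.0535), PBS #2 (0.0564) or PBS #3 (0.0611).

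In the same contrast against AAV control with the count filter, 4 of 7 pan-neuronal genes were called higher with a median of 1.37, 2 of 4 oligodendrocyte genes were called higher with a median of 1.90, and 4 of 8 astrocyte genes were called lower with a median of -1.44. The members' median was 1.59, and that of all genes tested was -0.05. Of the 8 CA pyramidal genes, 1 was called higher, with a median of 0.60. The part of a general change in what the pull-down held was not tested.

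Other genes known from granule cells were mostly not called. Of 10 such genes, 1 was called higher and 0 lower in input against AAV control with the count filter, with a median of -0.34 beside -0.37 for the members and -0.03 for all genes. The gene called was Trpc6, a cation channel, which rose by 1.13 ± 0.18 in the fit with the FPKM filter (edgeR, adjusted p = 0.0139). Against PBS, Plk5, a polo-like kinase, was the 1 gene called and fell by 1.85 on the log2 scale, and it is named because of this count. In IP, 2 of the 10 genes were called higher and 0 lower against AAV control, with a median of 0.15 beside 1.08 for the members, and 2 were called higher and 1 lower against PBS, with a median of 0.10 beside 1.002. The genes called, named because of these counts, were Trpc6 and Pdzd2, higher against both controls, and Il16, lower against PBS.

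By contrast, genes known to be induced in granule cells by seizures rose, in a list chosen with earlier results of these data known. With the count filter, 5 of 6 were called higher in input against AAV control and 6 of 6 against PBS, with medians of 2.01 and 2.30. Against AAV control in the fit with the FPKM filter, Penk, the enkephalin precursor, rose by 5.51 ± 0.29 (edgeR, adjusted p = 0.000620). In the same fit Inhba, the activin A subunit, rose by 2.37 ± 0.23 (adjusted p = 0.00154), and Nptx2, a pentraxin of excitatory synapses, by 2.06 ± 0.19 (adjusted p = 0.00138). Several of these genes are also expressed by other neurons, so their level is not one of granule cells alone. In the astrocyte IP, 6 of 6 were called higher against each control, with medians of 4.55 (AAV control) and 4.38 (PBS). Over all genes, 8.03% and 11% were called higher there. Penk in KA was 2380, 1905 and 6297 FPKM in IP, and 1042, 913 and 1405 in input. Which cells gave the rise in input was not tested.

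Some genes of CA pyramidal cells fell too. With the count filter, 3 of 8 were called lower against each control and none higher, with medians of -0.98 and -0.83, and all 8 had a negative difference. Neurod6, a transcription factor of pyramidal neurons, fell by 1.31 ± 0.18 against PBS in the fit with the FPKM filter (edgeR, adjusted p = 0.000629), and Fibcd1, a CA1 marker, by 1.24 ± 0.13 (adjusted p = 9.89e-05). The 7 pan-neuronal genes had a median of -0.33 against AAV control and none was called, and their summed FPKM in input was 713 to 773 in KA, 923 to 1139 in AAV control and 972 to 1078 in PBS.

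Microglial and some astrocyte markers rose in input, and oligodendrocyte markers were not called. All 5 microglial genes were called higher against both controls, among them Aif1 at 2.93 ± 0.20, Csf1r at 2.07 ± 0.26 and Cx3cr1 at 1.85 ± 0.24 against AAV control (edgeR, adjusted p = 0.000640, 0.00497 and 0.00521). Of 8 astrocyte genes, 3 were called higher against AAV control, Gfap at 3.42 ± 0.29, Aqp4 at 2.08 ± 0.19 and Kcnj10 at 1.06 ± 0.15 (adjusted p = 0.000977, 0.00127 and 0.00784). Of 4 oligodendrocyte genes 0 were called against either control, with medians of -0.11 against AAV control and 0.26 against PBS. The summed FPKM of the microglial list was 145 to 207 in KA, 28.3 to 39.9 in AAV control and 30.1 to 33.0 in PBS. The part of the microglial and astrocyte rise in the fall of Dsp, Tdo2 and Lct was not tested.

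**Figure D4:**
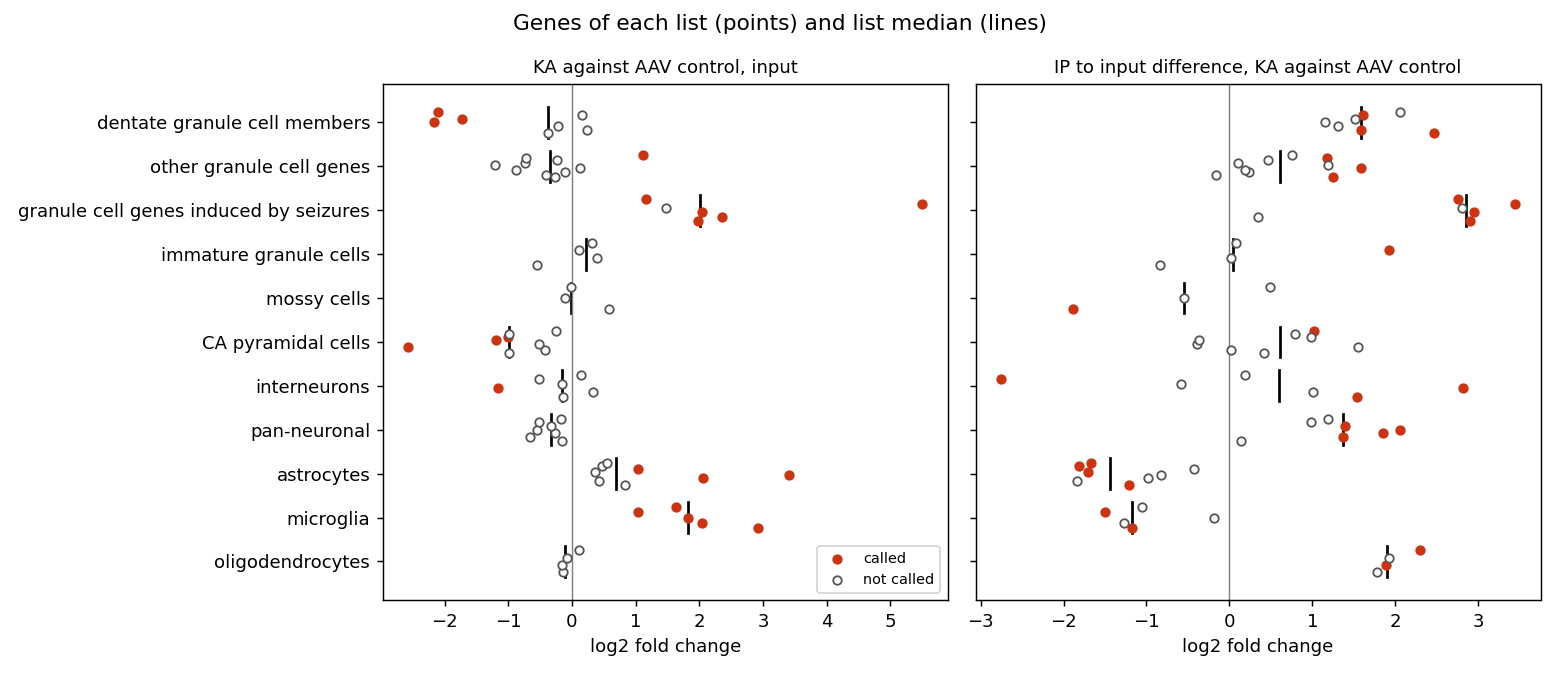
Log2 fold change of each gene (points) of 11 lists with the list median (black line), for KA against AAV control in input (left) and for the difference of the IP to input difference between KA and AAV control (right), with the count filter and no replicate block. Filled points were called. In input the members span -2.17 to 0.24, while the genes induced by seizures have a median of 2.01 and the CA pyramidal genes one of -0.98.

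Most pathway partners of the members were not called in input. Of 8 C1q-like and cerebellin genes and their receptors, 7 were tested and 0 called against AAV control, with a median of -0.23. Against PBS 1 was called, Cbln1, a cerebellin synapse organizer named because of this count, which rose by 1.43 on the log2 scale. Of 7 partners of desmoplakin in desmosomes and adherens junctions, 6 were tested and 0 called against either control, with medians of -0.21 and 0.06 beside -2.17 and -1.66 for Dsp itself.

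Of 10 enzymes that convert tryptophan to kynurenine and beyond, 4 passed the count filter against AAV control and 1 was called, Haao, which makes quinolinic acid and is named because of this count. Haao rose by 2.59 against AAV control and by 2.63 against PBS on the log2 scale. Of 9 other EF-hand calcium proteins, 1 was called lower against AAV control, the parvalbumin gene Pvalb, at -1.15 ± 0.15 (edgeR, adjusted p = 0.00618), and 1 against PBS, the hippocalcin gene Hpca, which fell by 1.60 and is named because of this count. Calb1 itself was not called in input.

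On log2(FPKM + 1), two-sided exact permutation tests of the 7 genes in 9 comparisons of 3 libraries with 3 gave p = 0.1, the smallest this design allows, in 25 of 63 tests. They were run on the members only, so no share over all genes stands beside this count. The comparisons also share libraries, and the count is not read as an excess. Adjusted over the 63 tests, the smallest p was 0.252. This scale understates the change of low genes. Dsp in input differed from AAV control by -0.94 on it, and by -1.85 with a pseudocount of 0.1 in place of 1.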

How the data were processed

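Sequencing libraries came from input and anti-GFP IP RNA of 9 pools of 3 to 4 right hippocampi. Alignment by the authors used STAR and the mm10 genome, and featureCounts and edgeR are named in the submitters' processing notes. Every library has 2 values for each of 55291 gene symbols, a count and an FPKM. The deposited counts are raw whole numbers, and the deposited FPKM values follow from the count, the library total and a fixed gene length. Strandedness, annotation and the handling of reads mapping to several genes, which matters for the paralogs C1ql2 and C1ql3, are not given in the sources used here. Samples #1 and #2 of KA and AAV control were sequenced in run 1, #3 in run 2 and PBS in run 3.

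Counts were tested in R 4.3.3 with edgeR 4.0.16 (TMM, quasi-likelihood test, Benjamini-Hochberg adjustment over all genes tested), separately for each pair of groups. The study's filter was kept (FPKM above 1 in every compared library), and members that failed took their values from genes with 10 counts or more in at least 3 compared libraries. Called genes had an adjusted p under 0.05 and changed by 1 log2 unit or more. SEs were taken as the absolute fold change over the root of F. Alternatives were DESeq2 1.42.0, limma-voom (limma 3.58.1), RLE size factors, other filters, all 18 libraries in one fit, a replicate block, the sequencing run, and each library left out. Exact permutation tests used log2(FPKM + 1). These tests and the IP to input fits left out the pairing of a homogenate, except where a replicate block is named. The steps were tested on simulated data. No 2 libraries of a group were duplicates, as their counts differed by 4.48 to 109 times counting noise. Same-numbered IP and input libraries of the same homogenate, which are paired by design, deviated together (correlations of 0.16 to 0.75). KA and AAV control libraries of the same number also did (0.35 to 0.55), but they are different pools that share a sequencing run, so this does not make them paired. Same-numbered libraries of PBS and another group had correlations of -0.29 to 0.35. Locations came from GENCODE vM21 and promoter sequences from RefSeq, whose table held 6 of the 7 members. The members and lists were chosen with earlier results of these data known. The text names the members, up to 3 genes per other list called with the largest fold change in KA against AAV control input (or PBS where none was called), the 3 genes most like each member, and Rpl10a. For Calb1 and C1ql3, 1 of these 3 genes each is not reported here.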

Additional observations from a re-analysis of the deposited data

Results flagged for a closer look

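The KA effect on Prox1, C1ql2 and C1ql3 differed between IP and input by the test of that difference itself, given here without the replicate block. Against AAV control the difference was 1.54 (log2) for Prox1, 2.37 for C1ql2 and 1.59 for C1ql3. Against PBS it was 1.12 for Prox1, 2.24 for C1ql2 and 1.07 for C1ql3. Groups of 3 are too small to mark a single library as standing apart, and KA IP #1 is named in the report only because all members but Prox1 were lowest there among the KA IP libraries.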

How the results depend on the processing

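Direction and call held for 878 of 1004 recomputed fold changes. 53 lost their call, 41 gained one and 32 changed sign, the last all for uncalled values of at most 0.59 (log2). Counts of called members moved as follows with the filter, first given with the FPKM filter. In input, KA gave 0 against either control, and 3 with the count filter or none. In IP, KA against AAV control gave 2, and 5 without a filter or 1 with limma-voom, and the count filter gave 3, and 5 without a filter, with all 18 libraries or in run 1 only. KA against PBS in IP gave 2, and 4 with the count filter or none. IP against input gave 3 and 6 in AAV control, and 2 and 5 in PBS, with 3 for all 18 libraries under the count filter. In KA it gave 1, and 2 under the count filter with DESeq2, RLE or the replicate block. The difference against AAV control gave 2, and 1 with limma-voom and 6 without a filter, and with the count filter 3, and 7 with the replicate block and 5 with the run as a covariate. Against PBS it gave 2, and 4 with the count filter and 6 without. Leaving out 1 library or homogenate gave, with the FPKM and the count filter, 1 to 3 (KA against AAV control in input, count filter), 1 to 3 and 2 to 5 (the same in IP), 1 to 3 (KA against PBS in IP), 0 to 1 and 0 to 1 (IP against input in KA), 0 to 3 and 1 to 4 (difference against AAV control) and 1 to 3 and 2 to 4 (against PBS).

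The fits with a replicate block changed no other call than those given here and in the report. KA and PBS samples share only a number, and there the block left 1 member called in IP, with C1ql2 at an adjusted p of 0.0647. Sign changes without a library left out were Calb1 in KA against AAV control input in run 1 only (0.147), Lct in IP against input of KA with limma-voom (-0.0858), and Dsp in IP against input of AAV control with DESeq2 (0.0193), RLE (0.0187), no filter (0.00649) and all 18 libraries (0.0219). With a library or homogenate left out, these ranged for Prox1 from -0.0283 to 0.319 (KA against AAV control, input) and -0.274 to 0.0832 (PBS against AAV control, input), for C1ql3 from -0.00231 to 0.174 (KA against PBS, input), for C1ql2 from -0.0264 to 0.444 and -0.184 to 0.411 (PBS against AAV control, input and IP) and -0.73 to 0.235 (IP against input, KA), and for Calb1 from -0.166 to 0.332 (PBS against AAV control, IP). For Tdo2 they ranged from -0.22 to 0.143 and -0.0436 to 0.73 (PBS against AAV control, input and IP), -0.804 to 0.386 and -1.11 to 0.0761 (KA against AAV control and PBS, IP) and -0.215 to 0.954 (IP against input, KA), for Lct from -0.17 to 0.0187 (PBS against AAV control, input), -1.26 to 0.282 (KA against AAV control, IP) and -0.59 to 0.938 (IP against input, KA), and for Dsp from -0.578 to 0.0761 (PBS against AAV control, IP), -0.297 to 0.272 and -0.0838 to 0.518 (IP against input, AAV control and PBS). From TMM-normalized CPM the ratio was 1.23 for Prox1 in KA, 0.428 for Prox1 and 0.170 for C1ql3 in AAV control, and the other 18 moved by less than 1 SD. The low counts of Tdo2 and Lct limit the IP comparisons.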

Other observations

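Genes of neighbouring dentate cell types were at 0 in no group. The 3 mossy cell genes summed to 30.4 to 56.1 FPKM in KA input, 25.8 to 29.9 in AAV control input and 23.8 to 32.9 in PBS input, and none was called. Only 1 of the 3 passed the FPKM filter, so the sum does not stand for the whole list. With the count filter the median log2 difference of KA was -0.007 against AAV control and 0.53 against PBS. Of 5 immature granule cell genes 4 were tested in input, and none was called against either control, with medians of 0.21 against AAV control and 0.41 against PBS.

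Markers of tissue next to the hippocampus varied between pools. The summed FPKM of 3 choroid plexus genes in input was 2483 to 4472 in KA, 15.5 to 2976 in AAV control and 18.2 to 289 in PBS, and the choroid plexus gene Ttr was higher in KA than in PBS by 4.31 ± 0.74 (log2, SE, edgeR, adjusted p = 0.00207). Prkcd, of the thalamus list, was higher by 1.33 ± 0.24 (adjusted p = 0.00251). The part of the dissection in the members' levels was not tested.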
